A study of Homo sapiens with 8 samples.

Results

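The untreated differences between A549 and PC9, human lung adenocarcinoma cell lines, were measured on the arrays of their vector controls. The comparison took the 2 arrays titled as A549 controls and the 2 titled as PC9 controls, which are 4 of the 8 arrays of the study, and ran over all 18244 annotated genes. The study asked what EN2, an engrailed homeobox transcription factor, changes in each line when it is carried in by a retrovirus. The other 4 arrays, 2 per line, came from cells with EN2 and served here as a second reading of the difference between the lines. All cells had been infected with virus made in the packaging line 293FT and selected for stable carriage with the drug that the labels call genemycin. The control cells carried the Neo vector without EN2. A549 grew in F-12K and PC9 in Dulbecco's modified Eagle medium, both with fetal bovine serum, so the medium went with the line in every array. The labels do not say whether a stable line was a pool or a clone, or that the 2 arrays of a group came from separate cultures. If they did not, a p-value reflects technical spread alone.

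Both lines are standard models of lung adenocarcinoma, a cancer that arises from gland-forming epithelial cells of the distal airway. A549 is known for loss of function of KEAP1, STK11 and SMARCA4 and for a deletion on the short arm of chromosome 9 that takes CDKN2A. PC9 is known for an activating deletion within EGFR and for dependence on that receptor. Epithelial tumour cells hold together through cadherins and tight junctions. They can move towards a mesenchymal state, in which repressors such as ZEB1 lower junction genes and vimentin fibres replace part of the keratin network.

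Levels are log2 intensities of probe sets, put on a common scale over the 8 arrays by quantile normalisation, and each gene is given by its brightest probe set. A difference is A549 minus PC9, so positive values are higher in A549. A gene was called when limma's test gave a Benjamini-Hochberg adjusted p below 0.05 over all genes and the difference was at least 1, which is 2-fold. Background was the 95th percentile of 100 ERCC control probe sets, whose spike-in RNAs the labels do not mention, and lay at 4.21 in A549 and 4.09 in PC9. Where the lower line was under background, only a bound is known, and the fold is written as "at least", from the higher line's mean and the other line's background. An array intensity does not compare 1 gene with another, so levels are compared only within a gene.

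The processing of the arrays also went with the line. As deposited, the array medians were 6.346 and 6.349 in the A549 controls and 6.108 and 6.109 in the PC9 controls, and no value was the same in an array of each line (0.0%), against 0.677% and 0.6% of values within a line. The 24 probe sets of the poly-A spike-ins, which are bacterial RNAs added to a sample before labelling, were all higher in A549 after scaling, by 0.72 to 2.11 with a median of 1.23. The 18 probe sets of the hybridisation spike-ins, added after labelling, were all lower in A549, with a median of -0.53. The 3 probe sets for 18S ribosomal RNA read 12.5 and 12.9 on average in the A549 controls and 6.17 and 6.21 in those of PC9. The signal of the 3′ over the 5′ probe set of the actin transcript was 0.86 and 0.85 in A549 and 0.99 and 1.05 in PC9. Spike-ins stood further apart, with dap at 0.72 and 0.98 in A549 and 1.55 and 1.61 in PC9. For thr the values were 1.49 and 1.29 against 2.31 and 2.28. The GAPDH, lys and phe pairs were also higher in PC9, by less. Line, medium and array processing cannot be told apart here, and their shares in each difference were not tested.

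**Figure D1:**
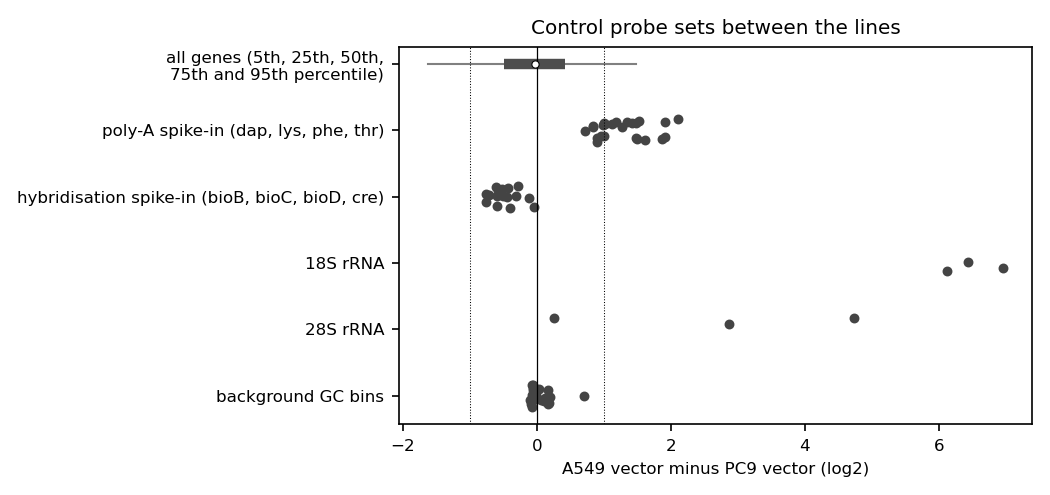
Difference of each control probe set between the vector arrays of the lines (A549 minus PC9, log2, horizontal axis), by kind of control, with the spread of all genes in the top row (white point, median; thick bar, 25th to 75th percentile; thin bar, 5th to 95th). All 24 poly-A spike-ins lie to the right of 0 and reach 2.11, all 18 hybridisation spike-ins lie to its left, and the 3 probe sets of 18S rRNA lie beyond 6.

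The lines differed widely. Of the 18244 genes, 3868 were called, which is 21.2% of them: 1749 were higher in A549 (9.59%) and 2119 higher in PC9 (11.6%). Without a minimum difference, 12875 genes (70.6%) passed the test, at a median standard error of 0.0941. Across probe sets the 2 control arrays of a line had a correlation of 0.997, and a pair from different lines 0.897 to 0.900. The share of calls that were higher in A549 was 45.2%, and it moved with the scaling, to 56.0% (2336 against 1832 genes) with values as deposited and 38.1% (1572 against 2551) with arrays centred on their medians. The median difference over all genes was -0.03 after scaling and 0.17 as deposited. At 16-fold or more stood 105 genes higher in A549 and 107 higher in PC9. Above background lay 14957 genes in both lines, 541 in A549 alone and 823 in PC9 alone. Of the called genes with several probe sets, 79.3% had all of them on the same side, against 56.3% of all genes with several. With the mean of all probe sets in place of the brightest, some genes named in the text lost their call, namely ABCC1, ATM, AXL, BCL7C, CDH1, COL1A1, HACD4, KLHL9, NF1, PHF10, PSMB8, PSPH, THBS1 and TJP1.

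The genes furthest above PC9 in A549 were led by CXCL5, IGFBP1, GJA1 and VIM, of which VIM is described with the mesenchymal genes. CXCL5, a chemokine that draws neutrophils, read 12.63 and 12.71 in A549 and 2.85 and 2.86 in PC9, where it was under background, so that it was at least 384-fold higher in A549 (limma adjusted p = 5.75e-12). IGFBP1, an insulin-like growth factor binding protein made in quantity by liver, read 12.30 and 12.10 against 3.18 and 3.20 and was at least 277-fold higher. GJA1, the gap junction protein connexin 43, read 11.77 and 11.77 against 2.92 and 2.85, at least 206-fold higher. On the brightest probe set of each of these genes the lines stood far apart, with PC9 at the level of the empty controls. The other probe sets of GJA1 differed by 2.35 to 2.82. On the brightest of those PC9 read 5.43 and 5.34, over background. RSPO3, a secreted amplifier of Wnt signalling, was at least 221-fold higher. NNMT, which methylates nicotinamide, was at least 102-fold higher and FGF2, basic fibroblast growth factor, at least 84.3-fold. CCL5, a chemokine for T cells, read 12.82 and 12.80 against 5.94 and 5.67, a difference of 7.01 ± 0.093 (SE). CYP24A1, the enzyme that inactivates vitamin D, differed by 6.86 and TESC, the calcium-binding protein tescalcin, by 7.24. PPP1R14A, SPX, FABP5, ID2 and PNMA2 completed the 15 highest, with bounds between 48.0-fold and 103-fold.

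The genes furthest above A549 in PC9 were led by CDKN2A, MUC4 and HS6ST2. CDKN2A, a cell cycle inhibitor, read 12.55 and 12.52 in PC9 and 4.35 and 4.33 in A549, a difference of -8.20 ± 0.078 (SE, limma adjusted p = 5.75e-12). MUC4, a membrane mucin, read 10.88 and 10.87 in PC9 and 3.17 and 3.50 in A549, under background there, and was at least 102-fold higher in PC9. Its other probe set differed by only -0.62, at 6.05 and 6.05 in PC9 and 5.41 and 5.45 in A549, over background. HS6ST2, a heparan sulfate sulfotransferase, was at least 101-fold higher, the long non-coding RNA UCA1 at least 82.3-fold and the calpain protease CAPN8 at least 75.2-fold. PSCA, a glycolipid-anchored surface antigen, differed by -6.79 and S100A14, a calcium-binding protein of epithelia, by -6.30. ALPP, placental alkaline phosphatase, differed by -6.43 on probe sets that its close paralogs may share. F3, tissue factor, which starts coagulation, read 12.52 and 12.51 in PC9 and 6.78 and 5.95 in A549. ARHGDIB, CLDN7, EPCAM, ESRP1 and the chloride channel ANO1 followed, between -6.46 and -5.94. FSTL5 completed the 15, under background in A549 and at least 35.0-fold higher in PC9.

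Both lines carried the keratins of simple epithelium, which fits their labels. KRT8 read 12.68 and 12.72 in A549 and 13.54 and 13.55 in PC9, and KRT18, its partner, 13.16 and 13.26 against 13.96 and 13.98. These differences, -0.84 and -0.76, passed the test and fell short of the minimum for a call, which they reached with values as deposited (-1.14 and -1.13) or centred (-1.38 and -1.37). KRT7 differed by -0.16. KRT19, a keratin of ducts and airways, was clearly lower in A549, at 9.62 and 9.76 against 13.33 and 13.51. NKX2-1, the transcription factor used to mark lung origin in pathology, read 6.58 and 6.59 in A549 and 6.53 and 6.63 in PC9, so the lines overlapped on it (difference 0.01 ± 0.093 SE, adjusted p = 0.946).

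Among 34 epithelial genes tested, 21 were higher in PC9 and 3 in A549, with a list median of -2.20. In bulk RNA, fewer cells of a kind and less RNA per cell cannot be told apart. EPCAM, the epithelial adhesion molecule, read 5.89 and 5.88 in A549 and 11.99 and 11.97 in PC9. The tight junction protein CLDN7 read 5.20 and 5.19 against 11.47 and 11.56. ESRP1, which sets epithelial splicing, read 4.50 and 4.65 against 10.62 and 10.60. GRHL2, a transcription factor that holds the epithelial state, read 3.66 and 3.58 against 9.01 and 9.06 and was at least 28.5-fold higher in PC9. All 5 of its probe sets were higher in PC9, with differences from -5.42 to -0.79. RAB25, an epithelial vesicle GTPase, and CDH3, P-cadherin, differed by -4.80 and -4.58. CDH1, E-cadherin, was less far apart, at 9.72 and 9.64 in A549 and 10.64 and 10.93 in PC9, a difference of -1.11 ± 0.098 (SE). Without the second PC9 control array CDH1 fell short of a call, at -0.96. The members higher in A549 were CLDN1 (1.84), CLDN2 (1.68) and the junction scaffold TJP1 (1.16).

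Among 33 mesenchymal genes the counts ran the other way, with 14 higher in A549, 2 higher in PC9 and a median of 0.71. VIM, vimentin, read 13.01 and 12.94 in A549 and 4.26 and 4.33 in PC9, just over the background there, a difference of 8.68 ± 0.074 (SE). ZEB1 read 8.93 on both A549 arrays and 4.04 and 3.67 in PC9, at least 28.7-fold higher in A549, with all 7 of its probe sets on the same side. FBN1, the microfibril protein fibrillin, differed by 4.21, the tropomyosin TPM2 by 3.75, smooth muscle actin ACTA2 by 3.20 and the matrix protein TGFBI by 2.82. The 2 members higher in PC9 were SNAI2, another repressor of epithelial genes, at 7.33 and 7.05 against 5.07 and 5.00, and COL1A1, a fibrillar collagen chain, by -1.28. COL1A1 fell short of a call as deposited (-0.93) and with the mean of its probe sets (-0.82). The counts of these lists changed by at most 2 genes with values as deposited or centred.

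**Figure D2:**
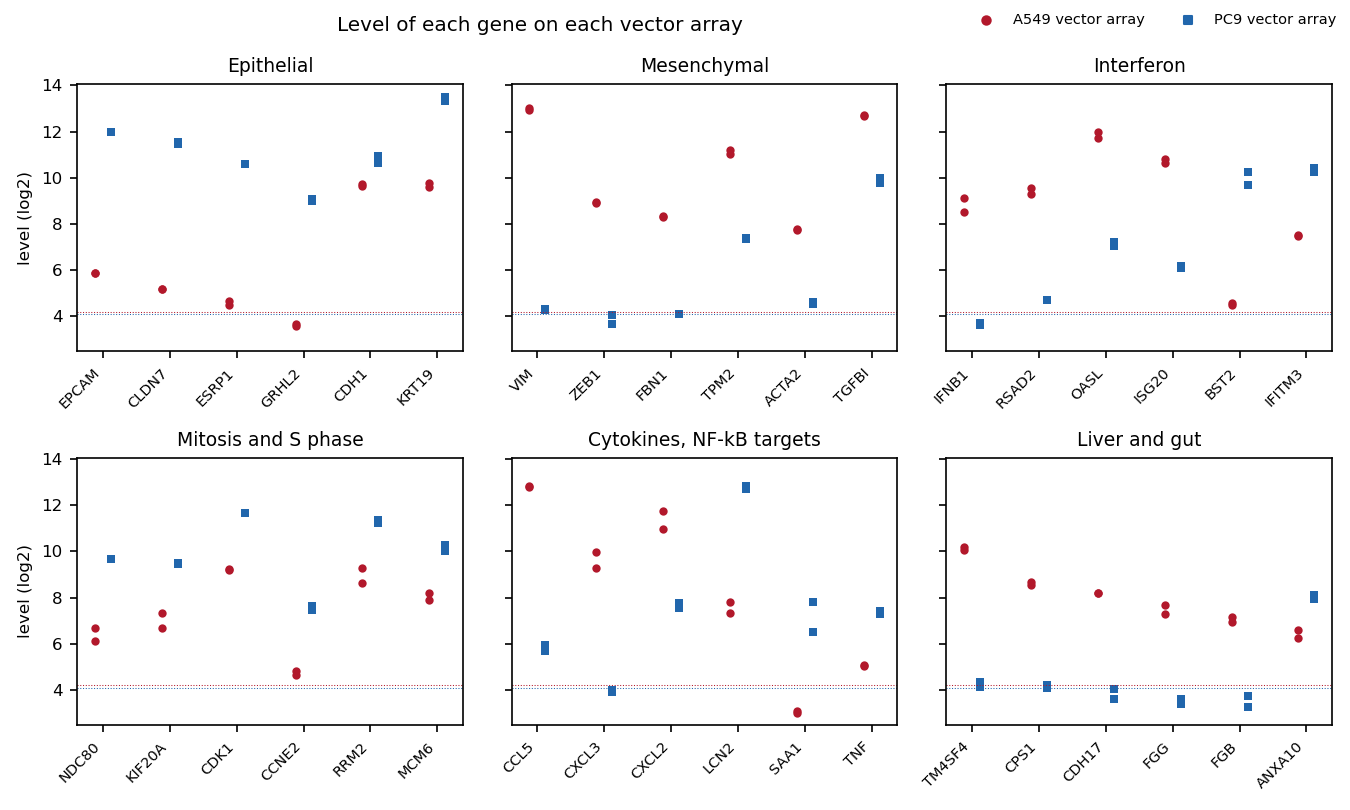
Level of 6 genes from each of 6 groups on each vector array (log2, vertical axis), with A549 as circles and PC9 as squares, and dotted lines at the background of each line. The arrays of a line lie close together, the lines do not overlap on any gene shown, and VIM at 13.01 and 12.94 against 4.26 and 4.33 shows the widest gap.

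Squamous and basal genes were in part higher in PC9. Of 26 tested, 10 were higher in PC9 and 0 in A549, where 5 had an unadjusted p below 0.05 with no minimum difference. The median was -0.72, and -0.42 as deposited. TRIM29, a marker of squamous cancer, read 10.87 and 10.90 in PC9 and 7.50 and 7.51 in A549. SERPINB5, the protease inhibitor maspin, differed by -4.02 and DSC2, a desmosome cadherin, by -2.88. S100A9 and S100A8, which pair as calprotectin, varied between the PC9 arrays: S100A9 read 9.74 and 11.07 there against 6.17 and 5.60 in A549, and S100A8 5.63 and 8.19 against 4.46 and 4.46. The S100A8 difference of -2.46 became -3.74 without the first PC9 array and -1.17 without the second. The S100A8 call ended with a robust prior variance (limma adjusted p = 0.0546) and in the EN2 arrays (-1.12, limma adjusted p = 0.134). Mucins and airway secretory genes were divided, with 10 of 33 higher in PC9, 4 higher in A549 and a median of -0.38, which was -0.09 as deposited. Besides MUC4, MUC16 (the CA125 antigen) differed by -4.17 and MUC20 by -4.16, and GALNT3, which starts mucin-type sugar chains, was at least 33.7-fold higher in PC9. AGR2, which folds mucins, read 12.19 and 11.51 in A549 and 8.66 and 9.66 in PC9, and the gut mucin MUC13 was higher in A549 by 2.46.

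The lung and foregut transcription factors were split between the lines: of 35 tested, 5 were higher in A549 and 6 in PC9. The median was -0.10 and turned to 0.17 with values as deposited. FOXA1, a pioneer factor of endoderm, read 5.97 and 5.83 in A549 and 10.54 and 10.74 in PC9, while its paralog FOXA2 read 7.73 and 7.75 in A549 and 5.55 and 5.71 in PC9. ID2, an inhibitor of helix-loop-helix factors that marks lung bud tips, read 9.85 and 10.06 in A549 and was under background in PC9, at least 58.4-fold lower there. TBX3 was at least 11.1-fold higher in A549, and MECOM was higher in PC9 by 3.93 (difference -3.93). Of 34 alveolar and club cell genes, 3 were higher in A549 and 5 in PC9 (23.5% called, near the 21.2% of all genes). The median was -0.04 and turned to 0.29 as deposited. BPIFB1, a secreted airway defence protein, read 8.26 and 9.44 in PC9 and 3.87 and 3.88 in A549, under background, and CTSH, a protease of surfactant processing, differed by -3.33. HOX genes, which keep the position of a tissue along the body, were also divided, with 5 of 29 higher in A549 and 4 in PC9. The share called was 31%, against 21.2% of all genes. HOXB9 was higher in A549 by 3.05, and HOXC11 read 8.23 and 8.35 in PC9 against 5.23 and 5.39 in A549.

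Of 48 liver and gut genes tested, 10 were higher in A549, 1 was higher in PC9 and 37 were not called. The share called, 22.9%, was near the 21.2% of all genes, and the median was 0.25 (0.57 as deposited). TM4SF4, a tetraspanin-like protein of gut and liver, read 10.05 and 10.21 in A549 and 4.14 and 4.35 in PC9. CPS1, the first enzyme of the urea cycle, read 8.66 and 8.52 against 4.07 and 4.22. The intestinal cadherin CDH17 was at least 17.3-fold higher. The 3 chains of fibrinogen were higher together: FGG at least 10.5-fold, FGB at least 7.86-fold and FGA by 3.57, with FGA at 8.73 and 8.07 against 4.81 and 4.87. The member higher in PC9 was ANXA10, an annexin of gastric epithelium, by 1.61 (difference -1.61). The complement and coagulation list, which shares the fibrinogen genes, had 13 of 34 members higher in A549 and 3 in PC9. PROS1, the anticoagulant protein S, differed by 4.25, the thrombin receptor THBD by 3.40 and the urokinase receptor PLAUR by 2.82, whereas F3 and the plasminogen activator PLAT (difference -2.61) were higher in PC9.

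Neuroendocrine and neuronal genes gave 9 of 30 higher in A549 and 0 in PC9, where 3 had an unadjusted p below 0.05. The median was 0.35, and 0.64 as deposited. SNAP25, a protein of vesicle fusion, read 9.25 and 9.06 against 4.83 and 4.83, and NEFL, a neurofilament chain, 7.06 and 7.08 against 4.29 and 4.33. DLL3, a Notch ligand, differed by 1.88. Markers of cells that a culture should lack were seldom called between the lines, which does not show that they were absent. Above background in A549 and PC9 lay 7 and 7 of 15 fibroblast genes. For 19 leucocyte genes these counts were 15 and 16, and for 15 endothelial genes 11 and 12. Of 15 fibroblast genes, 2 were higher in PC9 and 0 in A549, as were 2 of 19 leucocyte genes and 2 of 15 endothelial genes. The shares called were 13.3%, 10.5% and 13.3%, against 21.2% of all genes. With no minimum difference, 4, 6 and 1 of these lists had an unadjusted p below 0.05 in favour of A549. The members higher in PC9 were COL1A1 and FBLN1 (-2.59) of the fibroblast list, LCP1 (-1.92) and FCER1G (at least 2.01-fold) of the leucocyte list, and ESAM (-2.55) and CDH5 (at least 4.77-fold) of the endothelial list. FCER1G fell short of a call as deposited (-0.78), and the other probe sets of ESAM and CDH5 differed by only -0.10 and -0.06. Whether other cells contributed to the members higher in PC9 was not tested.

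Lung cancer driver and suppressor genes, not all of them altered in these lines, and partners of some were compared by level, which does not show a mutation. EGFR read 10.10 and 10.28 in A549 and 10.33 and 10.11 in PC9, so the arrays of the lines overlapped (difference -0.03 ± 0.14 SE, adjusted p = 0.859). Its 8 probe sets ranged from -0.85 to 0.89. SMARCA4, the ATPase of the SWI/SNF chromatin remodelling complexes, read 7.18 and 7.08 in A549 and 9.86 and 9.83 in PC9, with 6 of 6 probe sets lower in A549, by 2.10 to 3.58 (differences -2.10 to -3.58). SMARCA2, the other ATPase of that complex, read 8.65 and 8.42 against 8.83 and 8.68, a difference of -0.22 that did not pass (adjusted p = 0.101). KEAP1, which holds NRF2 down, differed by -0.65, and STK11, NFE2L2 (which encodes NRF2) and RB1 by 0.00, 0.01 and 0.03. MYC was 0.92 higher in A549, short of the minimum, and ATM and NF1 were called there at 1.34 and 1.01. NF1 fell to 0.98, under the minimum, without the second A549 or the first PC9 array. The 25 SWI/SNF subunits tested held 5 that were higher in PC9 and 0 in A549 (3 at an unadjusted p below 0.05), namely SMARCA4, SMARCB1 (-1.72), BCL7C (-1.69), BRD7 (-1.31) and PHF10 (-1.29). The share called, 20%, was near the 21.2% of all genes. With the mean of all probe sets, BCL7C stood at -0.74 and PHF10 at -0.50, and neither was called.

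The contrast at CDKN2A was followed along the short arm of chromosome 9. All 3 probe sets of CDKN2A were lower in A549, by 8.20, 5.16 and 4.99 (differences -8.20, -5.16 and -4.99). CDKN2B, the inhibitor beside it, read 3.041 and 3.005 in A549, under background, and 8.83 and 8.75 in PC9, at least 23.9-fold higher there, and its other 2 probe sets were lower in A549 too. MTAP, a methionine salvage enzyme on the other side of CDKN2A, had 6 probe sets that disagreed. On 4 of them A549 lay between 2.88 and 3.69, under background, and below PC9. The remaining 2 read 7.96 and 8.23 against 7.20 and 7.07, and 6.64 and 6.48 against 6.63 and 6.87, and the former is the brightest and stands for the gene in the counts (0.96, not called). With the mean of all 6 the difference turned to -2.88 and was called. Among the neighbours, MLLT3, FOCAD and KLHL9 on the MTAP side differed by 0.67, 0.84 and 1.06, and DMRTA1 on the CDKN2B side by 1.13. IFNE (-0.57) and TUSC1 (-0.44) were lower in A549, short of the minimum. KLHL9 stood at 0.99 without the second PC9 array. IFNB1 lies in the same stretch, and was at least 26.5-fold higher in A549. HACD4 was called at -2.77 on its brightest probe set, and its others lay on both sides of 0. The lost region of A549 is background knowledge, and copy number was not measured here.

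**Figure D3:**
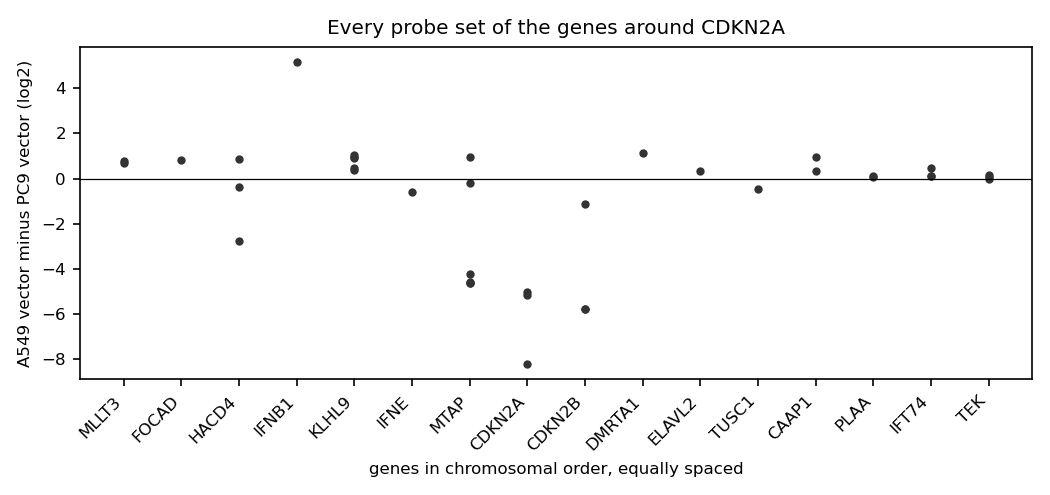
Measured difference between the lines (A549 minus PC9, log2, vertical axis, levels under background included) for every probe set of 16 genes around CDKN2A, in their order along the chromosome and equally spaced. Probe sets of CDKN2A, CDKN2B and 4 of the 6 of MTAP lie between -4.23 and -8.20 apart from 1 of CDKN2B at -1.10, while those of IFNB1 and DMRTA1 lie above 1.

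Ligands and receptors of the EGFR family differed gene by gene, with 5 of 24 higher in A549, 6 in PC9 and a median of -0.28, which was -0.08 as deposited. ERBB3, the partner receptor with little kinase activity of its own, read 5.45 and 5.05 in A549 and 9.83 and 9.96 in PC9. Its ligand NRG1 ran opposite, at 9.66 and 10.29 in A549 and 6.66 and 6.42 in PC9, with all 8 probe sets on the same side. The EGFR ligand EREG was higher in A549 by 2.89, and EGF, BTC, HBEGF and EPGN were higher in PC9, HBEGF by 1.84 (difference -1.84). BTC lost its call without the first PC9 array (-0.93). Of the brakes on the receptor, LRIG1 was at least 8.95-fold higher in A549 and ERRFI1 1.31 higher, and the ubiquitin ligase CBLC was at least 11.1-fold higher in PC9. Other receptor tyrosine kinases were split, 5 of 36 higher in A549 and 6 in PC9 (30.6% called, against 21.2% of all genes). IGF1R (2.74), MET (2.12), FGFR1 (2.10) and AXL (1.47) were higher in A549, and EPHA1 (-2.75), FGFR3 (-2.71) and EPHB6 (-2.70) in PC9. The median of these receptors, -0.12, turned to 0.28 as deposited.

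Output and feedback genes of the MAPK pathway, which lies below EGFR and other receptors, had 10 of 33 members higher in A549 and 2 in PC9, with a median of 0.40. DUSP1, a phosphatase that switches MAP kinases off, read 12.17 and 11.12 in A549 and 7.74 and 7.65 in PC9. The AP-1 subunit JUN read 10.89 and 10.17 against 8.44 and 8.30, and DUSP5 and IER3 differed by 1.98 and 1.93. The lines did not overlap on either of the first pair. JUNB was higher in PC9 (-1.02), a call that ended without the second A549 array (-0.79) or the second PC9 array (-0.93).

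Genes of DNA replication and of mitosis were higher in PC9. None was called higher in A549 by limma, where 2 S phase genes and 1 mitosis gene had an unadjusted p below 0.05. Of 35 S phase genes, 19 were higher in PC9, and of 33 mitosis genes 18, with medians of -1.17 in both lists. CCNE2, a cyclin of the start of S phase, read 4.65 and 4.82 in A549 and 7.64 and 7.47 in PC9. RRM2, which makes deoxynucleotides, read 8.62 and 9.27 against 11.34 and 11.24, and the helicase subunits MCM6 and MCM2 differed by -2.08 and -2.07. In the mitosis list, NDC80, a kinetochore protein, read 6.10 and 6.69 against 9.68 and 9.66. CDK1, the kinase that drives mitosis, read 9.22 and 9.17 against 11.65 and 11.64, and PLK1 and the transcription factor FOXM1 differed by -2.24 and -1.99. Many of these differences lie within the range of the spike-in differences, though in the other direction. Past the largest poly-A spike-in difference of 2.11, 2 S phase and 4 mitosis genes remained. Growth rate and density at harvest were not analysed here.

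Interferon response genes were called on both sides, 19 of 47 higher in A549 and 10 in PC9, with a median of 0.39. These genes are switched on when interferon, or the sensing of viral nucleic acid, activates factors that bind an interferon-stimulated response element in their promoters. IFNB1, interferon beta itself, read 9.12 and 8.50 in A549 and was under background in PC9 at 3.70 and 3.61, at least 26.5-fold lower there. RSAD2, the antiviral enzyme viperin, read 9.57 and 9.30 in A549 and 4.71 on both PC9 arrays. OASL read 11.98 and 11.73 against 7.06 and 7.21, and ISG20, an antiviral exonuclease, 10.81 and 10.65 against 6.18 and 6.10. HERC5, IFIT2 and the ubiquitin-like ISG15 differed by 4.45, 4.42 and 4.09. In the other direction, BST2, tetherin, which holds budding virus at the membrane, read 4.59 and 4.48 in A549 and 9.70 and 10.27 in PC9. IFITM3, which blocks viral entry, read 7.50 and 7.51 against 10.26 and 10.40. EPSTI1 was at least 2.69-fold higher in PC9 and PARP9 differed by -1.71, as did its partner DTX3L by -1.57. Past a difference of 2.11 there remained 11 genes higher in A549 and 2 in PC9.

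The promoters of this list were searched for the core of that element, TTTC, any 2 bases and TTTC on either strand, in the 250 bases before the gene start. RefSeq promoters of GRCh38.p14 were matched for 39 of the 47 genes, and 23 of them (59.0%) held a match, against 374 of 14494 promoters of all tested genes (2.58%). A match was present in 10 of 15 promoters of members higher in A549 and in 7 of 9 of members higher in PC9. The sites of 3 genes from each side are shown in the direction of the gene, with 15 flanking bases and the matched core in capitals, because the element is alike on both sides of the comparison. Overlapping matches are joined.
IFIT1, higher in A549 by 3.89, chr10:89392492-89392544, plus strand: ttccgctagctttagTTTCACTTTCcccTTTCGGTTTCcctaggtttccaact
ISG15, higher in A549, chr1:1013369-1013414, plus strand: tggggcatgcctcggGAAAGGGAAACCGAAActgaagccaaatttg
ISG20, higher in A549, chr15:88638932-88638971, plus strand: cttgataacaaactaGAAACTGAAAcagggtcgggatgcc
BST2, higher in PC9, chr19:17405730-17405775, minus strand: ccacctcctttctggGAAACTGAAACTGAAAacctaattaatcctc
IFITM3, higher in PC9, chr11:320871-320927, minus strand: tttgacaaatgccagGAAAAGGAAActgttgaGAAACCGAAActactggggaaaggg
EPSTI1, higher in PC9, chr13:42992267-42992306, minus strand: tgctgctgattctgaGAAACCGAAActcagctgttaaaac
The first 2 of each side hold a pair of matches, and ISG20 and EPSTI1 a single one. IFIT1 lies outside the rule for named genes and was chosen for its site after its value was seen. A match describes these letters and is not evidence of binding. Sites of the factors HNF1 and HNF4 were searched in the same way in the liver and gut list. The HNF4 site was in 1 of 33 promoters (3.0%), of a gene not called, against 38 of 14494 (0.26%). The HNF1 site was in 0 of 33 and in 0 of 14494, so that search could not tell the list from other genes.

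Chemokines, cytokines and NF-kB targets gave 19 of 43 higher in A549 and 10 in PC9, with a median of 0.64. After CXCL5 and CCL5, CXCL3 was at least 46.4-fold higher in A549 and CXCL2 read 11.73 and 10.95 against 7.75 and 7.56. CXCL11, a chemokine induced by interferon, was at least 4.59-fold higher and CCL2, which draws monocytes, at least 4.63-fold. The members higher in PC9 included LCN2, an iron-trapping defence protein, at 12.68 and 12.84 against 7.82 and 7.33. SAA1, an acute phase protein, read 6.52 and 7.82 in PC9 and was under background in A549, at least 7.82-fold lower there. TNF read 7.40 and 7.30 in PC9 and 5.08 and 5.03 in A549. Of 39 antigen presentation genes, 3 were higher in A549 and 5 in PC9, and the share called, 20.5%, was near the 21.2% of all genes. The peptidase ERAP2 read 8.51 and 8.63 in PC9 and 4.72 and 4.80 in A549, the immunoproteasome subunits PSMB8 and PSMB9 differed by -1.88 and -1.41, and PDIA3, a folding enzyme of the peptide loading complex, by 1.98.

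NRF2 switches on genes that detoxify drugs and oxidants, and KEAP1 holds it in check. Of 47 targets tested, 12 were higher in A549 and 5 in PC9, while in the EN2 arrays the counts were 9 and 9. The list median was 0.12, close to that of all genes, and turned to -0.21 with arrays centred on their medians. ALDH1A1, which oxidises retinal and other aldehydes, read 13.62 and 13.65 in A549 and 7.98 and 8.88 in PC9. CES1, a carboxylesterase of liver, read 9.79 and 9.73 against 5.16 and 5.17, and HMOX1, haem oxygenase, 11.04 and 11.07 against 7.98 and 7.98. GSTA4, a glutathione transferase, differed by 3.25. The drug pump ABCC5 (-3.68), GSTM3 (-3.29) and the epoxide hydrolase EPHX1 (-3.11) were higher in PC9. The antioxidant response element core, TGAC, any 3 bases and GC on either strand, was found in 8 of 36 promoters of this list (22.2%) and in 11.65% of all promoters. It is shown for GSTA4, the named target higher in A549 whose searched promoter holds it, with the core in capitals at the last bases before the gene start.
GSTA4, chr6:52995285-52995308, minus strand: cccagccgggaccgcTGACCTGGC

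Other drug-metabolising enzymes were divided, 5 of 46 higher in A549 and 6 in PC9 (23.9% called, near the 21.2% of all genes). PON3 and PON2, lactonases, differed by 4.88 and 2.65, and in PC9 ALDH1A3 read 10.80 and 10.45 against 6.30 and 6.54. The P450 enzyme CYP2J2 was at least 9.29-fold higher in PC9. Of 24 ABC transporters, 4 were higher in A549 and 7 in PC9, among them ABCG2, which marks side populations, by 1.88 in PC9 (difference -1.88) and ABCC1 by 1.07 in A549.

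In metabolism, sterol and fatty acid synthesis stood higher in PC9, with 9 of 29 genes against 1 in A549 and a median of -0.45. FASN, the fatty acid synthase, read 8.29 and 8.35 in A549 and 10.49 and 10.61 in PC9, and SCD, the desaturase, 11.71 and 11.64 against 13.27 and 13.28. DHCR7, the last enzyme of cholesterol synthesis, differed by -2.11. STARD4, which carries sterol between membranes, was the member higher in A549, at least 6.29-fold. Of 34 serine, one-carbon and amino acid genes, 4 were higher in A549, 5 in PC9 and 25 were not called. This made 26.5% called, against 21.2% of all genes, with a median of 0.02. PHGDH, which starts serine synthesis, read 10.03 and 9.98 in A549 and 11.99 and 11.98 in PC9, with CTH (-2.32), PSPH (-1.54), SHMT1 (-1.29) and SHMT2 (-1.30) on the same side. The stress factors ATF3 and DDIT3 were higher in A549, by 3.68 and 3.32, as was WARS1, a transfer RNA synthetase, by 1.08. ATF3 read 10.88 and 9.95 there against 6.92 and 6.55. WARS1 fell under the minimum for a call with centred arrays (0.83) and without the first A549 array (0.975). Of 30 hypoxia and glycolysis genes, 6 were higher in A549 and 2 in PC9. The share called was 26.7%, against 21.2% of all genes, and the median was -0.04. CA12, a carbonic anhydrase, read 12.03 and 11.79 in A549 and 5.92 and 5.99 in PC9. NDRG1 read 11.14 and 10.63 against 7.67 and 10.12, so 1 PC9 array lay close to A549. It lost its call without the first PC9 array (0.77) or the first A549 array (1.74), and was 3.22 without the second PC9 array. The NDRG1 call also ended with a robust prior variance (limma adjusted p = 0.115).

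The machinery every cell needs was near level. None of 40 ribosomal protein genes was called by limma (16 higher in A549 and 11 in PC9 at an unadjusted p below 0.05), the list median was 0.04, and it turned to -0.28 as deposited. Of 28 proteasome genes 2 were higher in A549, and of 35 subunits of respiratory complex I 2 were higher in A549 and 1 in PC9.

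Of 38 integrin, laminin and basement membrane genes, 11 were higher in A549 and 2 in PC9, with a median of 0.39 (0.72 as deposited). NID2, a linker of basement membrane, read 9.14 and 9.13 in A549 and was at least 33.2-fold lower in PC9. COL4A6 and COL4A2, chains of type IV collagen, differed by 2.22 and 1.71, and the integrin subunit ITGAV by 1.76. ITGB6, an integrin of epithelia that activates TGF-beta, was at least 14.9-fold higher in PC9. YAP/TAZ and TGF-beta targets gave 12 of 34 higher in A549 and 5 in PC9, and the median, 0.08, turned to -0.04 with centred arrays. ID3 and the receptor TGFBR2 differed by 2.69 and 2.42. Wnt and Notch genes were split, 7 of 38 higher in A549 and 8 in PC9. The Notch ligand JAG1 read 10.91 and 11.06 in A549 and 8.26 and 8.19 in PC9, the receptor NOTCH3 5.82 and 5.96 against 9.68 and 9.96, and WNT5A, a ligand of non-canonical signalling, 4.41 and 4.27 against 8.81 and 8.75. The other probe set of NOTCH3 ran the other way, at 7.48 and 7.38 in A549 and 6.34 and 6.43 in PC9. Of 24 cancer-testis genes, normally silent outside the germ line, 2 were higher in A549 and 1 in PC9. The share called was 12.5%, against 21.2% of all genes, and only 10 lay above background in A549 and 12 in PC9. PRAME read 9.51 and 9.63 in A549 and was at least 44.9-fold lower in PC9.

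**Figure D4:**
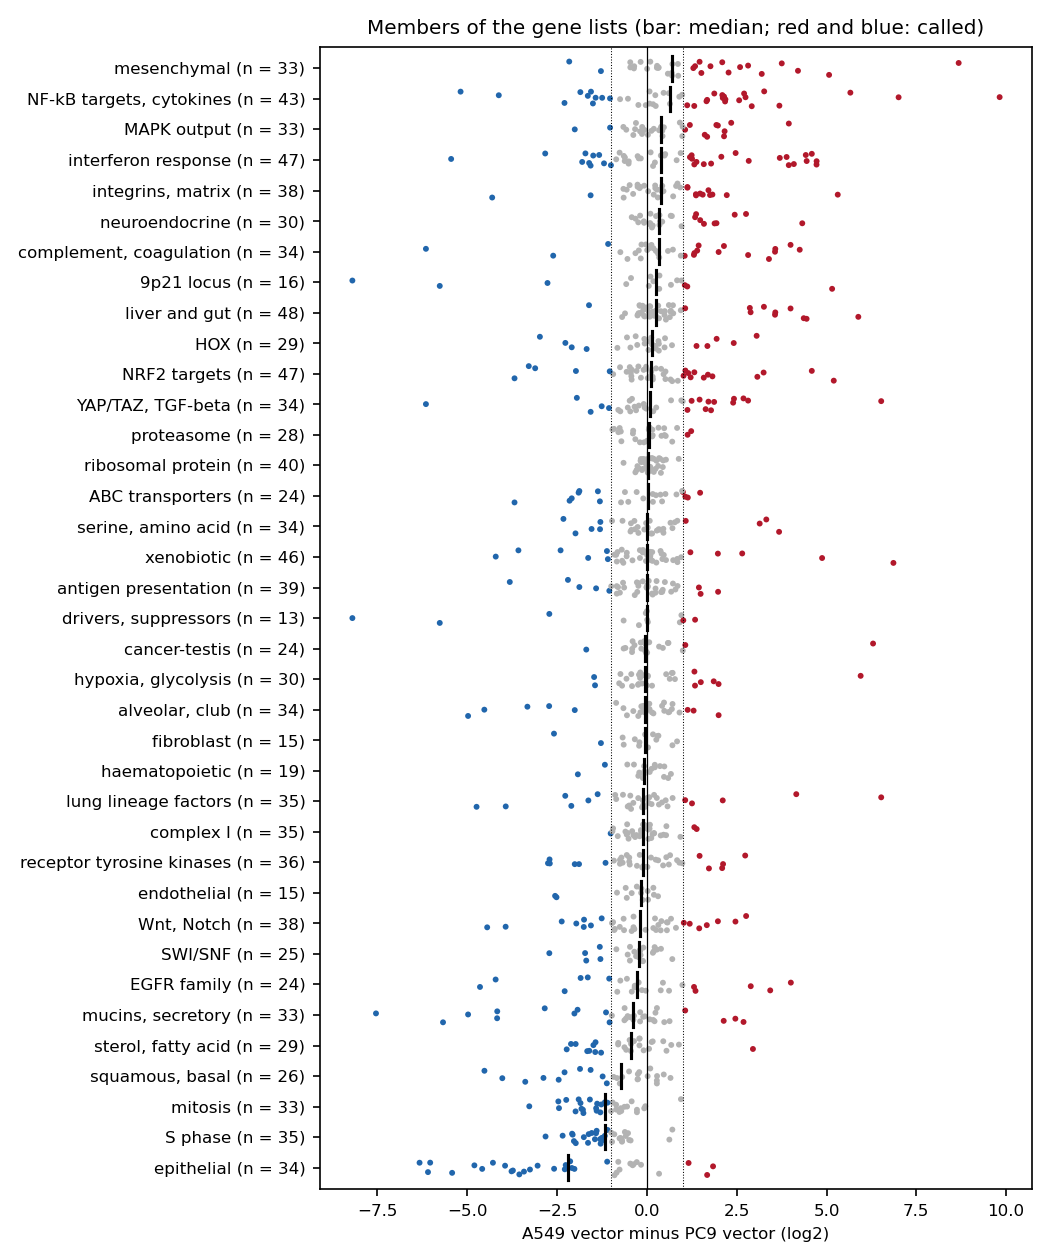
Difference between the lines (A549 minus PC9, log2, horizontal axis) for each tested member of 37 gene lists, with called members in red or blue, the others in grey, and a bar at each list median. Medians run from -2.20 for epithelial genes to 0.71 for mesenchymal genes, and several lists hold called members on both sides.

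Called genes also lay side by side in gene order, counted over measured genes above background in at least 1 line with others skipped. Runs of 3 or more such neighbours called in the same direction reached 5 genes in 4 places for A549 and 3 places for PC9. Runs of 3 genes numbered 46 for A549 and 68 for PC9. As 21.2% of all genes were called, some runs would arise without any link between neighbours, and an excess was not tested. On chromosome 9 stood PLPP6, CDC37L1, AK3, RCL1 and JAK2, all higher in A549 with a median of 2.06, and further along SAXO1, RRAGA, HAUS6, PLIN2 and DENND4C, with a median of 1.45. On chromosome 19 the kallikrein proteases KLK5, KLK6, KLK7, KLK8 and KLK10 were all higher in PC9, with a median of -3.40. KLK5 differed by -4.57 and KLK10 by -3.48. Per chromosome, over genes above background in at least 1 line, the median difference ran from -0.21 on chromosome 22 to 0.33 on chromosome 15. As deposited it ran from -0.08 to 0.50 on the same chromosomes. Of 503 such genes on chromosome 15, 108 (21.5%) were higher in A549 and 32 (6.4%) in PC9. Of 1656 on chromosome 1 the counts were 113 (6.8%) and 307 (18.5%). Over all genes tested the shares were 9.59% and 11.6%. That set also holds 1923 genes under background in both lines, so these shares are not on the same base as those per chromosome. Genes in these runs were singled out after their values were seen.

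The arrays with EN2 gave the difference between the lines a second time, on samples that share the lines, the media and the processing. There 3937 genes (21.6%) were called, 1803 higher in A549 and 2134 higher in PC9. Called in the same direction in both were 3414 genes, which are 88.3% of the calls in the controls and 86.7% of those with EN2, and 0 were called in opposite directions by limma. Of the 3868 genes called in the controls, 3863 had the same sign with EN2. VIM differed by 8.70 in those arrays, CDKN2A by -8.12 and EPCAM by -6.85. The epithelial list had a median of -2.26 there and the mesenchymal list 0.78.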

How the data were processed

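The authors deposited log2 values of 49495 probe sets on 8 single-colour arrays. Per the submitters' processing notes, these were made with RMA. Total RNA was reverse transcribed and the cDNA labelled with biotin, per the labels' protocols. The version of RMA, the array annotation and whether the lines were normalised together are unknown (not given in the sources used here).

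Values were quantile normalised over the 8 arrays. Of the probe sets, 45284 carried 1 gene symbol, 1333 several and 2878 none, and 45214 matched the GRCh38.p14 annotation. A gene was its brightest probe set with 1 symbol, which gave 18244 genes, 11826 of them with several probe sets. limma 3.58.1 in R 4.3.3 fitted a mean per group to all 8 arrays (lmFit, eBayes with an intensity trend, 4 residual degrees of freedom), with two-sided p-values and Benjamini-Hochberg adjustment over all genes. With 2 arrays per side, exact permutation could give no p under 0.333. The number of arrays limits the precision.

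The members and the 38 gene lists (1263 genes, 1160 tested, the others not analysed here) were chosen with earlier results of these data known, and 1 list is not reported here. Lists are described by counts and medians beside those of all genes. Named genes were the 15 largest differences on each side among called genes with all probe sets of 1 sign, no overlap of arrays and the higher line above background, up to 6 called members per list and direction, all driver and 9p21 genes, and the markers of epithelium and lung. The pipeline was checked on simulated data. Replicate numbers did not pair the arrays of the lines. Alternatives were other scalings, prior variances, filters, probe set rules, thresholds, a replicate block and leaving out each array. A minimum difference set by the spike-ins and a restriction to genes with several probe sets of the same sign were added after seeing the data.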

Additional observations from a re-analysis of the deposited data

Results flagged for a closer look

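The difference between the lines changed between the vector arrays and the EN2 arrays for 22 of the named genes, by a test of that change itself (limma's interaction of line and EN2, Benjamini-Hochberg adjusted p below 0.05 over all genes). Over all 18244 genes, 143 passed this test, 97 of them among the called ones. Values are the difference in the EN2 arrays minus that in the vector arrays, on the log2 scale. Among epithelial and mesenchymal genes, CDH1 moved by -1.13, so that E-cadherin lay further below PC9 with EN2, EPCAM by -0.75, KRT19 by -0.67, ACTA2 by -1.07 and DSC2 by 1.06. Matrix genes and their partners moved by 0.80 for NID2, 0.89 for COL4A6 and 0.73 for THBS1, and the receptor AXL by -0.63. Liver, gut and coagulation genes moved by -1.23 for TM4SF4, 0.90 for CPS1, -1.13 for ANXA10, 0.98 for PROS1 and 1.08 for THBD. Detoxifying enzymes and transporters moved by -0.64 for CES1, -0.80 for EPHX1, 1.0 for ABCA5 and -0.89 for ABCA13. PPM1D moved by -0.996, ADM by 1.04, PSMB9 by 0.69 and HACD4 by 0.74. All 22 kept the sign of their difference between the lines in the EN2 arrays, but ABCA13 (0.11), THBS1 (-0.53), PSMB9 (-0.72) and AXL (0.84) fell short of the minimum for a call there. Groups of 2 arrays are too small to look for a single array that stands apart.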

How the results depend on the processing

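The counts depended on the rule for a call. MTAP turned from 0.96 to -2.88 with the mean of its probe sets, and with values as deposited more genes were higher in A549 (2336) than in PC9 (1832). Testing every probe set gave 4744 higher in A549 and 4936 in PC9 (EN2 arrays 4826 and 5011). limma's treat against a difference of 1 gave 1100 and 1368 (EN2 arrays 1213 and 1388), and no minimum difference 6163 and 6712 (EN2 arrays 6129 and 6777). A minimum of 2.11, the largest poly-A spike-in difference, left 477 and 537, and genes with several probe sets of the same sign were 1021 and 1130. Leaving out each array in turn gave 1719 to 1763 and 2113 to 2143. The replicate number as a block gave 1749 and 2119 (EN2 arrays 1806 and 2135), and the numbers do not pair the arrays (correlation of deviations -0.08 for vector and 0.15 for EN2 groups). Of 311 named genes, 41 were no longer called under treat, 39 with the mean of all probe sets, 6 as deposited and 9 centred. Levels under background set to background left 3716 calls of at least 1 and moved no list median by more than 0.17. The causes were not tested.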
